A study of Arabidopsis thaliana with 24 samples.

Results

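The 100 probe sets described here are those whose signal was higher in water-limited than in well-watered Arabidopsis thaliana rosettes at each of 4 times of day. A probe set is the group of short oligonucleotides by which the array reads 1 transcript. Of 22810 probe sets on the array, 64 are controls, and 11926 of the remaining 22746 had a log2 value of 5 or more in at least 3 of the 24 arrays. In each of these the group mean of well-watered plants was subtracted from that of water-limited plants at each time, and 202 (1.69%) had a smallest change of at least 0.25 log2. The 100 with the largest smallest change were taken as members. The opposite pattern, with all 4 changes at -0.25 log2 or below, was found in 144 probe sets. The drought changes chose the members, so they are described below without a test. Members just inside the edge had smallest changes of 0.328, 0.328 and 0.327 (the last is AT2G31110), and those just outside had 0.325, 0.324 (the flavonol glycosyltransferase gene UGT78D1) and 0.323.

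Of the 100 members, 53 were assigned to exactly 1 gene, each to a different one, 3 to several genes and 44 to none in the annotation used here. Only the 53 are called by gene name. Among all probe sets tested 52.8% had exactly 1 gene.

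Whole rosettes of the Columbia-0 wild type were collected from plants grown in soil under a photoperiod of 12 h and aged 32 days at harvest. Water-limited plants got no water over the last 4 days, after 28 days of watering, and well-watered plants were watered every other morning until harvest. The sampling times were 12 h, called midday, 18 h, called late day, 0 h, called midnight, and 6 h, called pre-dawn, with 3 arrays in each of the 8 groups. The labels call the 3 arrays biological replicates and do not say how many rosettes each array represents. The leaf marker RCA (AT2G39730), the Rubisco activase gene, lay between 13.65 and 14.62 log2 on all arrays, and the root-hair marker EXPA7 (AT1G12560) lay at or near the floor of the table, between 2.2 and 2.28 log2. No flower or seed marker of the lists used was named on the array. In RNA from whole rosettes, fewer cells of a type and less RNA per cell cannot be told apart.

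A plant short of water closes its stomata, takes up less carbon dioxide, and makes abscisic acid, a hormone that changes the transcription of many genes. Over the same days it exports, stores or breaks down sugars, starch, nitrogen compounds and chloroplast material, and many of the genes involved also follow the clock and the light. A transcript that is higher at every time is therefore read against a level that itself moves through the day.

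The table holds log2 values, array medians lay between 4.66 and 4.86, and precision is limited by having 3 arrays per group. The members did not move evenly in all arrays of a group. Each member was set against its well-watered mean of the same time, and the median over the 100 was taken in each array. Water-limited midday replicate 1 had a median of 0.98 log2, while replicates 2 and 3 had 0.19 and 0.41. In well-watered midnight plants replicate 1 had -0.55, replicate 2 had 0.06 and replicate 3 had 0.50. Water-limited pre-dawn replicate 2, at 0.75, was lower than replicates 1 and 3, at 1.43 and 1.5. The median over all probe sets tested stayed between -0.05 and 0.05 in each array. The gap between the 3′ and 5′ control probe sets of GAPDH, a measure of RNA integrity and labelling, was 1.5 to 1.75 log2 in water-limited and 1.26 to 1.46 in well-watered late-day arrays, and 1.58 to 1.64 against 1.31 to 1.48 at pre-dawn. At midday it was 1.17 to 1.43 against 1.41 to 1.57, and at midnight 1.49 to 1.60 against 1.39 to 1.64. The gap of actin was 4.23 to 4.40 log2 in water-limited and 3.90 to 4.26 in well-watered arrays at midday, and 4.02 to 4.25 against 3.8 to 3.93 in the late day. It was 4.08 to 5.19 against 4.39 to 4.62 at midnight and 4.40 to 4.72 against 4.34 to 4.44 before dawn. The gap of ubiquitin was 1.26 to 1.34 log2 in water-limited and 1.14 to 1.32 in well-watered arrays at midday. In the late day it was 1.05 to 1.27 against 1.15 to 1.24, and at midnight 1.23 to 1.46 against 1.23 to 1.31. Before dawn it lay lower in water-limited arrays, at 1.06 to 1.14 against 1.11 to 1.23. Water-limited midday replicate 1 had the highest gap of its group for GAPDH (1.43), actin (4.40) and ubiquitin (1.34). The part of these gaps in the changes was not tested.

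**Figure D1:**
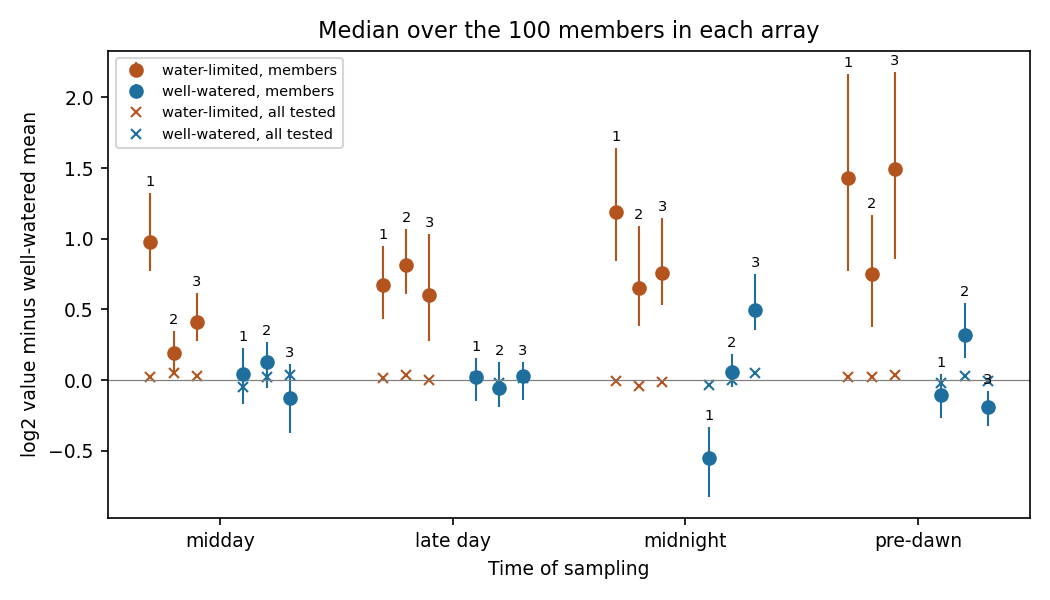
Median over the 100 members of the log2 value minus the well-watered mean of the same time (filled circles, bars from the lower to the upper quartile of the members) and over all probe sets tested (crosses) in each array, by time of sampling and water regime, with replicate numbers above the bars. Water-limited midday replicate 1 (0.98) stands above replicates 2 and 3 (0.19 and 0.41), and the well-watered midnight arrays spread from -0.55 to 0.50.

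The drought change was smallest by day and largest before dawn over most members. The members had a median midday change of 0.51 log2 (1.42-fold), a late-day median of 0.65 (1.56-fold), a midnight median of 0.85 (1.80-fold) and a pre-dawn median of 1.17 (2.24-fold). Over all probe sets tested the medians were 0.04, 0.01, -0.02 and 0.03. Changes of all probe sets tested were also wider before dawn, with quartiles of -0.09 and 0.18 at midday and -0.22 and 0.26 at pre-dawn. The members had their smallest change mostly at midday (62 of 100) and their largest mostly at pre-dawn (67), with 19 largest at midnight, 10 at late day and 4 at midday. In 33 members the change became larger at each step of the series midday, late day, midnight and pre-dawn. In 58 members both night changes exceeded both day changes, and the opposite held in 3. The shares of all probe sets tested with these patterns were not counted, so the patterns are not read as particular to the members.

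Single members spanned 0.33 to 1.43 log2 at midday, 0.33 to 4.20 in the late day, 0.38 to 2.59 at midnight and 0.34 to 3.64 before dawn. At least a 2-fold change was reached by 6 members at midday, 23 in the late day, 43 at midnight and 60 before dawn. The corresponding numbers among all probe sets tested were 19, 61, 116 and 272. Both members that reached this size at all 4 times lack a gene in the annotation. In the member ranked 1 by smallest change, the changes were 1.23, 1.25, 1.98 and 2.12 log2 from midday to pre-dawn. In the member ranked 2 they were 1.15, 1.81, 2.27 and 2.27. These 2 and the next one were singled out after their values were seen. The late-day maximum of 4.20 log2 belonged to the member ranked 17, also without a gene, with 9.56, 7.75 and 9.14 in the water-limited arrays and 6.23, 3.70 and 3.92 in the well-watered arrays. It was the highest late-day change of any probe set tested, whereas at pre-dawn the same probe set changed by 0.67.

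In 28 members at midday the 3 water-limited arrays all lay above the 3 well-watered arrays, against 7.38% of all probe sets tested. In the late day it was 66 members (7.29% of all tested), at midnight 54 (5.97%) and before dawn 77 (17.5%). Since the rule used the same changes, nothing is read from these counts beyond how often single arrays overlap. Separation at all 4 times was found in 9 members, of which BETA-VPE, LHCB4.3 and AT1G08230 have a gene name. The share of all probe sets tested that were apart at all 4 times was not counted, and nothing more is read from this count.

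**Figure D2:**
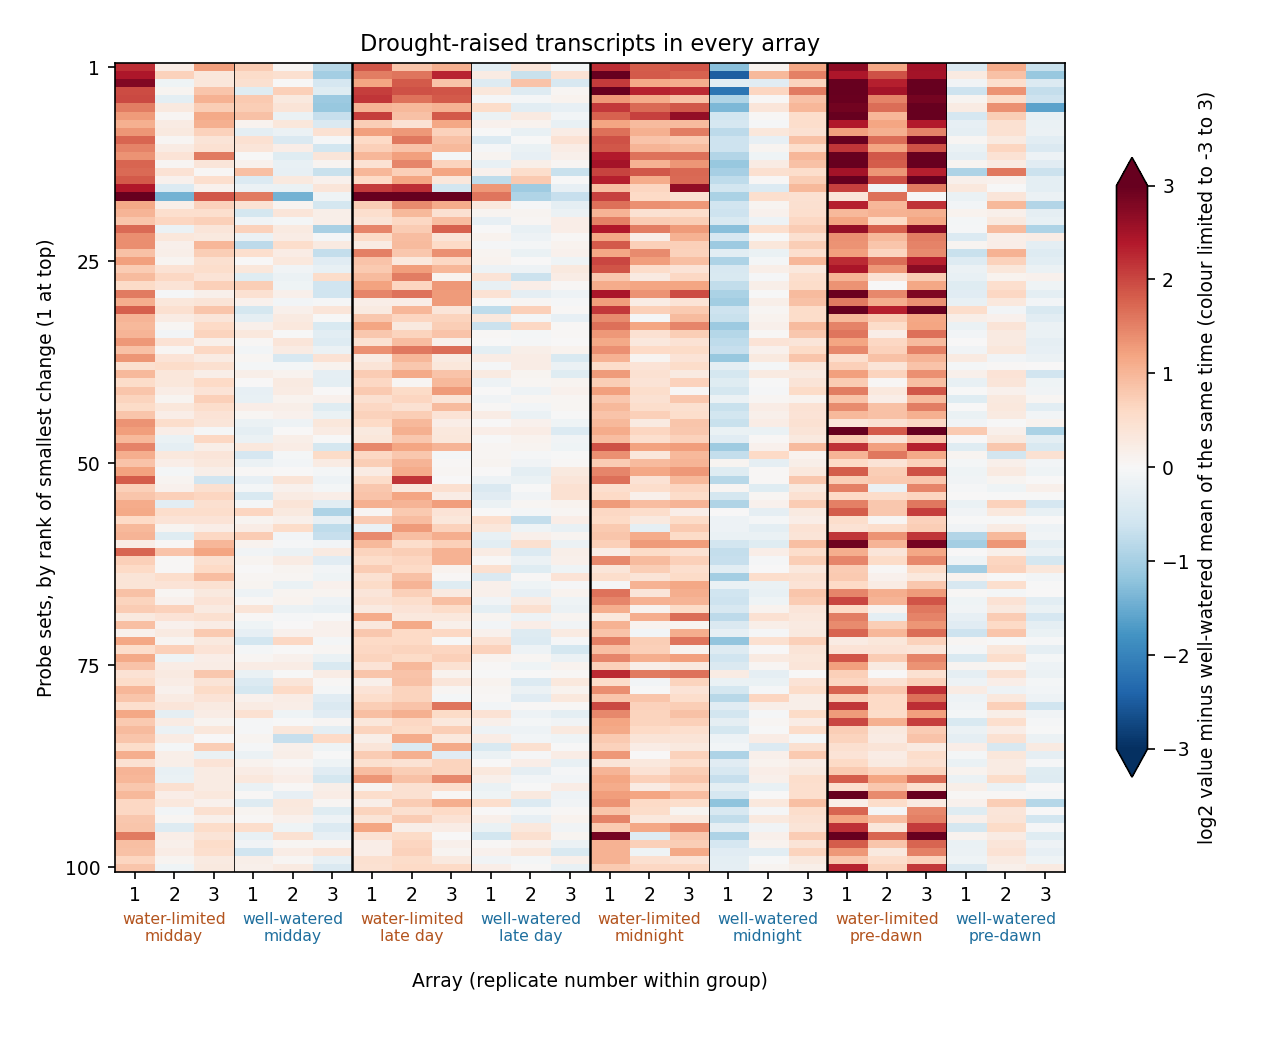
Heat map of the 100 members (vertical axis, ranked by smallest change) in the 24 arrays (horizontal axis, grouped by time with water-limited left of well-watered), coloured by log2 value minus the well-watered mean of the same time. Colour in the water-limited columns is strongest at pre-dawn, where the median change was 1.17 log2, and weakest at midday, where it was 0.51.

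SWEET13 (AT5G50800), which encodes a sucrose exporter of the plasma membrane, had the largest smallest change of the 53 named genes. At pre-dawn its log2 values were 9.04, 7.84 and 9.15 in water-limited plants, against 6.40, 7.52 and 4.55 in well-watered plants. At midnight they were 9.42, 9.01 and 9.16 against 5.94, 7.66 and 8.30, and at late day 7.58, 7.54 and 7.61 against 7.11, 6.25 and 6.33. At those 3 times no water-limited array overlapped the well-watered ones, and the water-limited arrays lay closer together at midnight and late day. At midday the arrays overlapped, with 7.47, 6.24 and 6.68 against 6.69, 6.32 and 4.81. The mean changes were 0.86, 1.01, 1.90 and 2.52 log2 from midday to pre-dawn, which is 1.81-fold to 5.75-fold. APL3 (AT4G39210), a large subunit of ADP-glucose pyrophosphorylase, the enzyme that provides the substrate of starch synthesis, changed by 0.60, 0.55, 0.63 and 1.33 log2. Its pre-dawn values were 9.0, 8.54 and 8.81 in water-limited plants and 7.21, 7.76 and 7.36 in well-watered plants. The water-limited arrays lay above the well-watered ones at every time but midnight.

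Small CC-type glutaredoxins, plant-specific thiol proteins of which several bind TGA transcription factors, were present with 3 members. AT3G62960 had the largest pre-dawn change of them, 3.03 log2 (8.17-fold), with 8.43, 5.43 and 8.55 in water-limited plants and 3.93, 5.17 and 4.22 in well-watered plants. Its changes at midday, late day and midnight were 0.83, 1.60 and 2.15. AT4G33040 changed by 0.55, 1.46, 1.92 and 2.39 log2, with pre-dawn values of 10.20, 8.70 and 10.06 against 6.93, 7.88 and 6.98. In both genes the arrays of the regimes overlapped at midday and were apart at the 3 later times of the series. AT2G47880 changed by 0.33, 0.53, 1.12 and 1.54 log2 and was apart at midnight alone, where its values were 9.13, 9.49 and 9.74 against 8.07, 8.24 and 8.72. Across the 4 times its well-watered means differed by 0.11 log2, and its water-limited means by 1.24.

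Anthocyanins, the red and purple vacuolar pigments, are finished by glycosyltransferases, and 2 such genes were members. UF3GT (AT5G54060) had pre-dawn values of 10.37, 8.74 and 10.34 in water-limited plants, against 6.98, 6.94 and 6.53 in well-watered plants, a change of 3.00 log2 (8.02-fold). AT4G14090 had 11.27, 9.28 and 11.46 against 7.66, 7.79 and 7.19, a change of 3.12 log2 (8.72-fold), the largest pre-dawn change of the named members. At late day the changes of these genes were 0.71 and 0.33 log2, and in both the arrays of the regimes overlapped. At midnight they changed by 1.71 and 1.11. Midnight values of AT4G14090 in water-limited plants were 8.89, 5.64 and 6.83, against 5.09, 6.16 and 6.78 in well-watered plants, so replicate 1 alone lay well above the well-watered arrays. The UDP-glycosyltransferase family also gave AT2G36970, with changes of 0.53 to 1.15 log2, and UGT72E1 (AT3G50740), which glucosylates coniferyl aldehyde, with 0.35 to 0.78.

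Vacuolar processing enzymes are cysteine proteases that cleave and activate vacuolar proteins. BETA-VPE (AT1G62710) was one of the 3 named genes whose arrays were apart at every time. Its midday values were 4.87, 4.54 and 4.63 in water-limited plants and 4.43, 3.99 and 3.86 in well-watered plants, and at pre-dawn 7.16, 6.00 and 7.42 against 4.54, 5.04 and 4.53. At late day they were 5.53, 6.02 and 5.74 against 4.61, 4.60 and 5.06, and at midnight 7.66, 6.32 and 6.19 against 5.29, 5.96 and 6.09. The change was 0.58, 1.01, 0.95 and 2.15 log2 over the series of times, and the closest approach of the regimes was at midnight. GAMMA-VPE (AT4G32940) changed by 0.43, 1.11, 1.08 and 1.3 log2. Its pre-dawn values were 14.38, 13.67 and 14.44 against 12.67, 13.55 and 12.36, and its arrays overlapped at midday only. AT2G25625, the chloroplast vesiculation gene, whose product takes chloroplast proteins to the vacuole, changed by 0.73, 1.02, 1.18 and 2.57 log2. At pre-dawn it had 7.78, 6.30 and 7.52 in water-limited plants and 4.69, 4.88 and 4.31 in well-watered plants, a 5.95-fold change.

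The list of amino acid breakdown and nitrogen recycling genes had 7 genes tested and none among the members, and the next 3 genes were put side by side after their values were seen. ALN (AT4G04955), the allantoinase of purine breakdown, changed by 0.42, 1.15, 0.84 and 1.88 log2, with pre-dawn values of 8.59, 7.80 and 8.58 in water-limited plants and 5.57, 7.43 and 6.33 in well-watered plants. MGL (AT1G64660), methionine gamma-lyase, changed by 0.49, 0.38, 0.73 and 0.99 log2. AT1G08230, a transporter of the amino acid GABA, changed by 0.48, 0.61, 0.70 and 0.98 log2. Its arrays were apart at every time, narrowly at midday (6.41, 5.79 and 5.99 against 5.65, 5.73 and 5.38) and clearly at pre-dawn (5.99, 5.89 and 6.09 against 4.82, 5.29 and 4.94).

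LHCB4.3 (AT2G40100), a minor antenna protein of photosystem II, had the most even change of the 3 genes that were apart at every time. Its changes were 0.51, 0.52, 0.50 and 0.66 log2, or 1.42-fold to 1.58-fold. At midday its values were 9.95, 10.04 and 9.95 in water-limited plants and 9.42, 9.42 and 9.58 in well-watered plants, and at midnight 9.09, 8.95 and 9.09 against 8.27, 8.48 and 8.88. AT3G44450 encodes a BIC protein, an inhibitor of the blue-light photoreceptor cryptochrome, and changed by 0.74, 0.59, 0.69 and 0.48 log2. AT5G53420, a CCT-motif gene, changed most at late day, by 1.54 log2, with 8.15, 8.36 and 8.45 against 6.48, 6.96 and 6.88. GID1B (AT3G63010), a gibberellin receptor, changed by 0.57, 0.38, 0.60 and 1.59 log2 and was apart at pre-dawn alone, with 5.75, 4.77 and 6.17 against 4.21, 3.82 and 3.88.

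**Figure D3:**
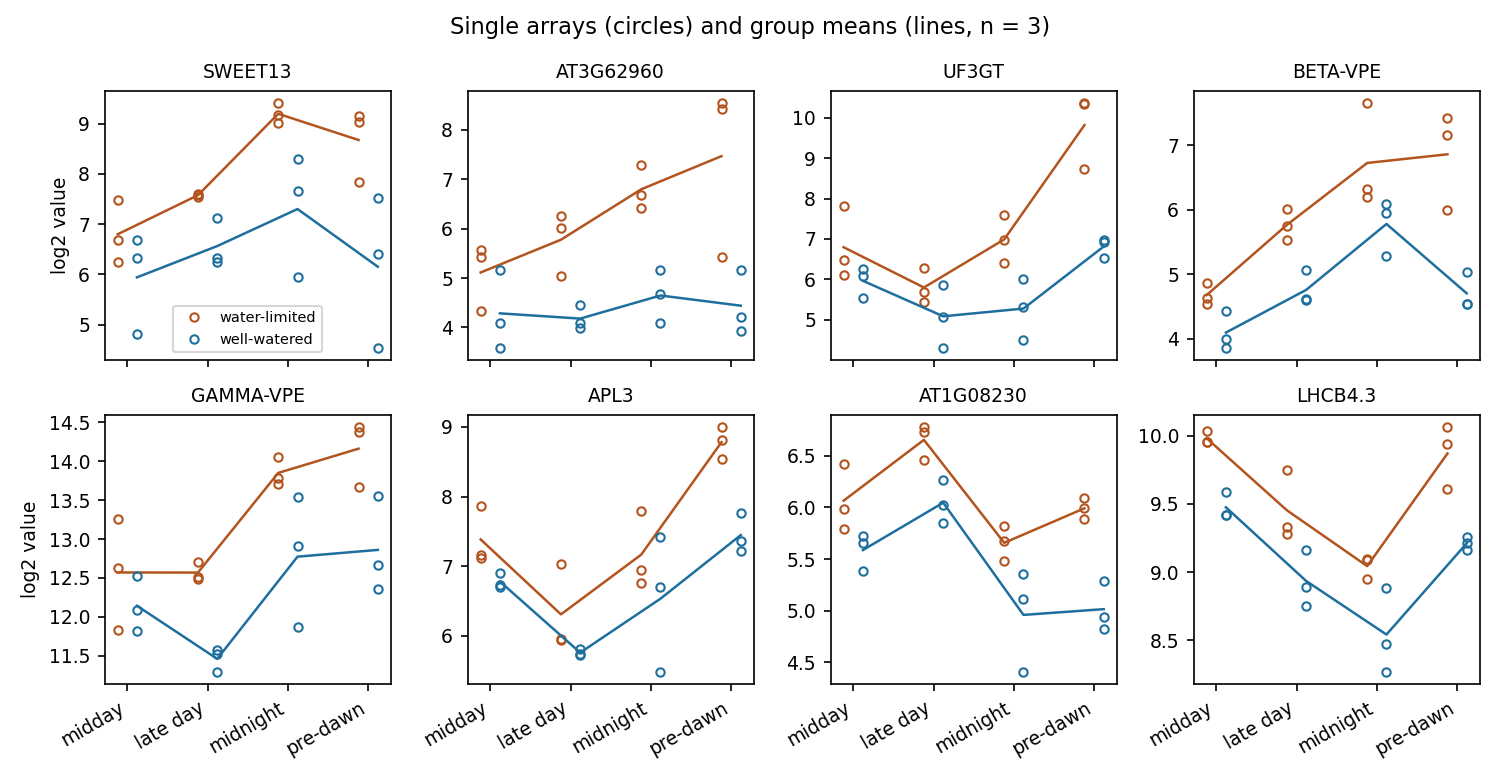
Log2 values of 8 members by time of sampling, with circles for single arrays and lines through group means (n = 3) in water-limited and well-watered plants. SWEET13, AT3G62960, UF3GT and BETA-VPE have their widest gap at pre-dawn (changes of 2.52, 3.03, 3.00 and 2.15 log2), and the gap of LHCB4.3 stays between 0.50 and 0.66.

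Several other families gave more than 1 member. FLZ proteins, small zinc-finger proteins that bind the energy-sensing kinase SnRK1, were AT5G47060 (0.57 to 0.86 log2), AT4G17670 (0.38 to 1.02) and AT1G22160 (0.35 to 1.57). The trichome birefringence-like family, to which cell-wall acetyltransferases belong, gave TBL38 (AT1G29050), with changes of 0.40 to 1.38 log2, and AT2G31110, with 0.33 to 1.70. Of the GDSL lipases, RXF26 (AT1G58430) changed by 0.71 to 1.41 log2 and AT1G28570 by 0.43 to 1.56. RXF26 was a dim probe set, with pre-dawn values of 4.76, 2.61 and 4.28 against 3.03, 2.71 and 2.41 and 1 well-watered late-day value at the floor. RXF26 and AT5G55560, a protein kinase gene with changes of 0.51 to 0.80 log2, were the 2 members that passed the filter on low values only through water-limited arrays. The oxygenases that use 2-oxoglutarate gave AT3G50210 (0.46 to 0.70 log2) and AT3G21360 (0.36 to 0.60). The alpha/beta hydrolases gave AT2G45600 (0.65 to 1.03), AT5G38220 (0.43 to 0.76) and AT5G22460 (0.34 to 0.82).

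The remaining named genes of high rank had no shared family. AT1G67360, a gene of lipid-droplet-associated proteins, changed by 0.73, 0.85, 1.28 and 1.75 log2, and its pre-dawn values were 11.25, 10.29 and 11.01 against 8.90, 9.74 and 8.66. AT1G15410, of the aspartate/glutamate racemase family, changed by 0.80, 0.78, 1.03 and 1.99. AT1G80130, a tetratricopeptide-repeat gene, changed by 0.63, 1.34, 1.73 and 2.39. In these 3 genes the arrays overlapped at midday and at no other time. Pre-dawn changes were 2.05 log2 in AT4G19430, 1.83 in AT1G55760, a BTB/POZ-domain gene, 2.08 in AT5G59050, 1.29 in AT5G43150, 0.84 in AT4G01390, a TRAF-like gene, 0.56 in AT1G64370, and 1.24 in AAE16 (AT3G23790), an acyl-activating enzyme. The 47 members without a single gene had median changes close to those of the 53 with one, at midday 0.50 and 0.51 log2 and at pre-dawn 1.09 and 1.24.

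How far the choice rested on single arrays was examined by leaving them out. Without water-limited midday replicate 1, the median midday change of the same 100 members was 0.32 log2 in place of 0.51, 95 were above 0 and 66 were at 0.25 or more. Applying the rule without that array recovered 62 of the 100 members, the fewest for any array, and without each other array it recovered 75 to 99. The midnight median of 0.85 log2 was 0.58 without replicate 1 of the well-watered plants and 1.07 without their replicate 3. Membership without any one of the 24 arrays was kept by 26 probe sets, of which 14 have a single gene. They are AT3G62960, AT1G15410, AT1G67360, AT1G55760, AT2G45600, AT5G43150, AT5G59050, BETA-VPE, AT5G47060, AT2G36970, AT5G53420, LHCB4.3, AT1G08230 and AT3G44450. SWEET13, UF3GT and AT2G25625 were not among them.

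The rule was also applied to the arrays of 2 replicate numbers, and the change of the chosen probe sets was read in the arrays of the number left out, which had no part in the choice. Of 82 probe sets chosen without the arrays numbered 1, 39 of them members, the median change in those arrays was 0.43, 0.54, 1.13 and 1.56 log2 from midday to pre-dawn. Of 100 chosen without the arrays numbered 2 (63 members), it was -0.03, 0.64, 0.59 and 0.31. Of 100 chosen without the arrays numbered 3 (58 members), it was 0.31, 0.28, 0.37 and 1.32. The medians over all probe sets tested lay between -0.06 and 0.08 in these comparisons. A change above 0 at all 4 times was seen in 55 of 82, 27 of 100 and 40 of 100 chosen probe sets, against 14.3%, 5.68% and 7.49% of all tested. The name of the group as raised at all times holds for the group means by construction, because the rule required it. In the arrays numbered 2 the median midday change of probe sets chosen without them was below 0. Each of these values comes from 1 water-limited and 1 well-watered array per time, and no test was made of them.

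**Figure D4:**
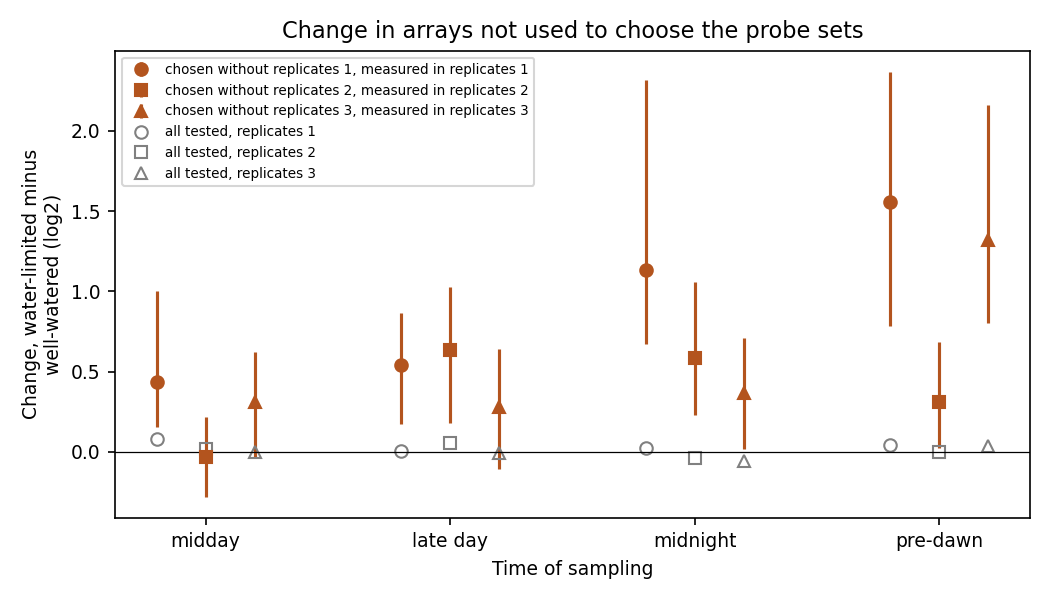
Change (water-limited minus well-watered, log2) at each time in arrays that had no part in choosing the probe sets, as the median with bars from the lower to the upper quartile, for each replicate number left out (filled), beside the median over all probe sets tested (open). The medians run up to 1.56 log2 at pre-dawn without the arrays numbered 1 and are -0.03 at midday without the arrays numbered 2.

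How the members varied among arrays of the same group is given as a description. The residuals come from the same arrays as the choice, and an array in which many probe sets deviate together, such as water-limited midday replicate 1, enters both, so the value over all probe sets tested is not one that the members would have had by default. After each group mean was subtracted, the mean correlation between pairs of members over the 24 arrays was 0.49, against 0.01 between pairs of all probe sets tested. It was 0.51 over the 12 water-limited arrays and 0.48 over the 12 well-watered arrays. Leaving out the 6 arrays of 1 time gave 0.51 (midday), 0.57 (late day), 0.41 (midnight) and 0.46 (pre-dawn). Arrays of 1 group share their sampling time and regime, and members share each array, so a correlation can follow anything that differs between arrays. Among the 53 named genes, 96.1% of the 1378 pairs were above 0. The highest was 0.96, between AT1G80130 and AT1G22160. AT5G59050 and AT2G17710, as well as the glutaredoxins AT3G62960 and AT2G47880, reached 0.94. SWEET13 was most like AT1G55760 (0.92). Within families the correlation was 0.88 between UF3GT and AT4G14090, 0.84 between TBL38 and AT2G31110, 0.66 between AT3G62960 and AT4G33040, and 0.61 between BETA-VPE and GAMMA-VPE. It was 0.44 between the oxygenase genes and 0.26 between the lipase genes. The other pairs of UDP-glycosyltransferase genes ran from 0.47, between UF3GT and UGT72E1, to 0.79, between AT4G14090 and AT2G36970. The 3 hydrolase genes had 0.35 to 0.77, and the 3 FLZ genes ranged from 0.14, between AT5G47060 and AT1G22160, to 0.80, between AT4G17670 and AT1G22160. The lowest pair was AT3G21360 with AT3G56410, at -0.47.

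The average of both regimes at each time was used to ask how the members follow the time of day. It holds in part the drought change that chose the members, which was larger at night in most of them. The calls on the average are therefore not free of the choice. In well-watered plants alone 32 members were higher and 16 lower at night, with a median of 0.25 log2. Most of those that differed between night and day were higher at night. AT3G44450 averaged 2.92 log2 higher at midnight and pre-dawn than at midday and late day (SE 0.138, adjusted p = 3.51e-13, limma over all probe sets tested), with midnight values of 11.14, 10.45 and 11.01 in water-limited plants and 9.49, 10.39 and 10.64 in well-watered plants. Of the 100 members, 82 differed between the 4 times, against 70.2% of all probe sets tested. At night 52 rose, against 27.5% of all tested, and 15 fell, against 26.8%. The median night minus day value was 0.50 log2 over the members and 0.02 over all tested. Of the 67 night-day calls, 61 were made again whichever array was left out, 5 were lost without at least 1 array, and 1 (MGL) was made again in each fit that still tested it. Of the 82 calls between the 4 times, the numbers were 73, 8 and 1.

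After AT3G44450, the largest named rises at night were in AT1G76960 (2.55 log2, SE 0.26, adjusted p = 5.17e-08), UF3GT (1.31, SE 0.246, adjusted p = 0.000132), AT5G59050 (1.26, SE 0.197, adjusted p = 1.63e-05) and GAMMA-VPE (1.23, SE 0.185, adjusted p = 1.09e-05). BETA-VPE rose by 1.19 (SE 0.174, adjusted p = 7.08e-06), APL3 by 0.92 (SE 0.184, adjusted p = 0.000254) and SWEET13 by 1.11 (SE 0.313, adjusted p = 0.0052). The named members with the largest falls at night were AT5G22460, an alpha/beta hydrolase (-0.81 log2, SE 0.214, adjusted p = 0.00324), AT5G19875 (-0.73, SE 0.136, adjusted p = 0.000128), the GABA transporter gene AT1G08230 (-0.68, SE 0.104, adjusted p = 1.31e-05), MGL (-0.65, SE 0.159, adjusted p = 0.00162) and AT3G25290, a cytochrome b561 gene (-0.58, SE 0.183, adjusted p = 0.0118). MGL did not pass the filter on low values, and so was not tested, without water-limited late-day replicate 1 or 2 or well-watered late-day replicate 3. LHCB4.3 also fell at night, by 0.29 log2 (SE 0.0812, adjusted p = 0.00449). Of the glutaredoxins, AT3G62960 rose at night by 1.00 (SE 0.305, adjusted p = 0.00894) and AT4G33040 by 0.62 (SE 0.238, adjusted p = 0.0323), a call that ended when any of 9 arrays was left out. AT2G47880 had 0.48 (SE 0.211, adjusted p = 0.0611). In well-watered plants alone no difference between times was called in AT3G62960, AT4G33040, SWEET13 or AT5G59050. Their adjusted p there was 0.901, 0.247, 0.239 and 0.105 (limma F-test). The drought change of these genes was larger at night, so their rise in the average is not separate from the values the rule used. The other genes named here as rising at night differed between times in well-watered plants.

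**Figure D5:**
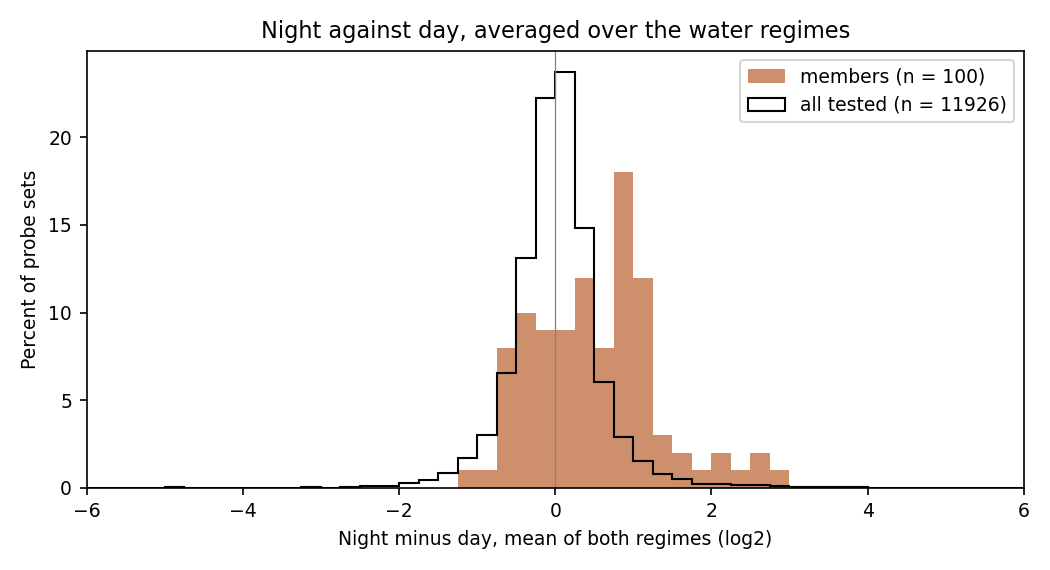
Night minus day in log2, averaged over both water regimes (horizontal axis), as percent of probe sets (vertical axis), for the 100 members (filled) and all 11926 probe sets tested (outline). The members lie to the right of all probe sets tested, with medians of 0.50 and 0.02.

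Since the average holds the drought change of each time in part, and that change was larger at night, the regimes were also read apart. These counts share arrays with the changes used by the rule and are given as a description. In water-limited plants 52 members were higher and 5 lower at night past the threshold, against 18.7% and 20.8% of all tested, and the median was 0.75 log2. In well-watered plants 32 were higher and 16 lower, against 21.1% and 19.3%, and the median was 0.25. A difference between the 4 times was called in 75 members in water-limited plants (53.6% of all tested) and in 53 in well-watered plants (49.9%), and in 51 in both. AT3G62960 is a case in which the regimes were far apart, with a range between the 4 group means of 2.36 log2 in water-limited and 0.47 in well-watered plants. In AT3G44450 the ranges were 4.15 and 4.04.

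The highest of the 4 group means fell at pre-dawn in 55 members in water-limited plants, against 27.7% of all tested, and in 34 in well-watered plants, against 25.9%. Both sets of means entered the changes used by the rule, so the counts of peaks are given as a description. The change was largest at pre-dawn in 67 members, so the water-limited peaks are not separate from the choice. Late day, the most frequent peak of all probe sets tested (30.9% in water-limited and 30.3% in well-watered plants), was the peak of 14 members in water-limited and 22 in well-watered plants. Midnight peaks numbered 26 and 30, and midday peaks 5 and 14. The peak was at the same time in both regimes in 69 members, among them UF3GT, APL3, GAMMA-VPE and LHCB4.3. The share of all probe sets tested with the same peak in both regimes was not counted. BETA-VPE peaked at pre-dawn in water-limited and at midnight in well-watered plants.

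The members with 1 gene were spread over the genome, with 16 on chromosome 1, 7 on chromosome 2 and 10 on each of chromosomes 3, 4 and 5. The probe sets tested that have 1 gene fell by 25.9%, 14.4%, 20.5%, 14.3% and 23.6% on chromosomes 1 to 5.

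Lists of 197 genes around drought, sugar, pigments, recycling and the clock were used to see what related genes did. These lists were chosen with earlier results of these data known. Their counts, here and for the single lists below, are therefore a description and give no independent support for a pathway. On the array 62 of the 197 genes were named and 50 were tested, 7 as members and 43 as other genes. Of the 43, none passed the limma test between the regimes at midday, where 0% of all probe sets tested passed, or at late day, where 0.0335% were higher and 0.176% lower. At an unadjusted p under 0.05 the numbers were 1 at midday and 7 at late day. At midnight 1 rose (0.109% of all tested) and none fell (0.277%), with 15 at an unadjusted p under 0.05. The midnight count was 3 without water-limited midnight replicate 2, and 2 without well-watered midnight replicate 3 or water-limited pre-dawn replicate 2. At pre-dawn 8 rose and 1 fell, against 4.1% and 3.14% of all tested. In the mean of the 4 times 11 rose and 4 fell, against 5.56% and 4.54%. The pre-dawn total of 9 was 4 without water-limited pre-dawn replicate 1 or 3, and 5 without well-watered pre-dawn replicate 1 or 3. None of the 43 had drought changes that differed between times past the threshold in limma, and 11 did so at an unadjusted p under 0.05.

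CC-type glutaredoxins moved in both directions beside the 3 members. AT5G11930 rose at pre-dawn by 1.97 log2 (SE 0.391, adjusted p = 0.00602), and AT5G18600 fell by 1.35 log2 (SE 0.243, adjusted p = 0.00352). In the mean of the 4 times AT5G11930 rose by 1.16 (adjusted p = 0.00103), while AT5G18600 fell by 0.56, AT4G15660 by 0.90 and AT3G62950 by 0.72 (adjusted p = 0.00668, 0.0199 and 0.0205). The other 3 of the 7 tested did not pass.

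Of the flavonoid and anthocyanin genes outside the members, all 3 that were tested rose at pre-dawn. AT5MAT, an anthocyanin malonyltransferase, rose by 3.67 log2 (SE 0.454, adjusted p = 0.00049), DFR, dihydroflavonol reductase, by 2.97 (SE 0.505, adjusted p = 0.00239) and the flavonoid glucosyltransferase UGT78D2 by 2.12 (SE 0.334, adjusted p = 0.00156). Their median change was 0.40 log2 at midday and -0.08 at late day. Of 5 sugar transporters besides SWEET13, SWEET1 rose by 0.67 log2 (SE 0.192, adjusted p = 0.0394) and SWEET4 by 0.96 (SE 0.27, adjusted p = 0.0361) at pre-dawn. SWEET2, which is in the vacuolar membrane, fell by 0.66 log2 in the mean of the 4 times (SE 0.184, adjusted p = 0.0284).

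All 10 autophagy genes named were tested and none was a member, although 8 had a positive change at all 4 times, as did 15.7% of all probe sets tested. Their median change was 0.13 log2 at midday, 0.26 in the late day, 0.32 at midnight and 0.51 before dawn. ATG8I, a ubiquitin-like protein of the autophagosome membrane, rose at pre-dawn by 0.84 log2 (SE 0.193, adjusted p = 0.0133), and ATG3, which helps to conjugate it, by 0.50 (SE 0.143, adjusted p = 0.0364). In the mean of the 4 times ATG8C, ATG8G and ATG8I rose, by 0.31, 0.59 and 0.39 log2 (adjusted p = 0.0469, 0.0323 and 0.0138).

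Of 7 genes of amino acid breakdown and nitrogen recycling, ASPGB1, an asparaginase, rose at midnight by 1.65 log2 (adjusted p = 0.00278) and had 0.08 at pre-dawn (adjusted p = 0.883). Of 4 clock genes RVE6 rose in the mean of the 4 times, by 0.37 log2 (SE 0.105, adjusted p = 0.0307). Of 23 listed ABA- and dehydration-responsive genes 5 had a named probe set, and 4 entered the tests: COR15A, COR15B, COR47 and LTI30. The median change of these 4 was -0.57 log2 at midday and 0.04 at pre-dawn. Only 3 of 20 listed stress transcription factors entered the tests. None of these 7 genes passed at any time, and 1 had an unadjusted p under 0.05 at midnight and 1 at pre-dawn. Most genes of both lists had no named probe set, so whether the lists as a whole responded was not tested. The genes listed for ABA receptors and signalling, ABA synthesis and breakdown, and proline and raffinose-family metabolism had no named probe set and were not analysed here.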

How the data were processed

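The deposited table holds log2 values computed by the authors with GCRMA, per the submitters' processing notes (version not given in the sources used here). GCRMA corrects background, normalizes between arrays and summarises the probes of a probe set. Of the deposited values 25.5% lay within 0.001 log2 of the lowest value, 2.1961, so changes of dim probe sets can be understated. Among the members 2 had a value at this floor. The part of the floor, and of the choice by large changes, in the values of dim members was not tested. No further normalization was applied. The platform annotation and the TAIR10.1 RefSeq table gave the gene names and chromosomes, and no coordinates were used.

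The members, gene lists, tests and alternatives were chosen with earlier results of these data known, and the grouping into families was made after the values were seen. Genes named in the text are, among members with 1 gene, the 25 of largest smallest change, the 5 largest night minus day values in each direction past the threshold, members of the lists, those at the edge of the rule and families with at least 2 members. Other genes were named where a result turned on them.

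Tests used limma 3.58.1 in R 4.3.3, with a mean for each of 8 groups of 3 arrays, 1 shared estimate of the spread and Benjamini-Hochberg adjustment over the 11926 probe sets tested, two-sided at 0.05. The fit was tested on simulated data. SE is the standard error from this fit. Correlations were taken over residuals from group means. The alternatives were other filters, centring, quantile normalization, group medians, only probe sets with 1 gene, a replicate block, and leaving out each array. Promoter and protein sequences were not used here.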

Additional observations from a re-analysis of the deposited data

How the results depend on the processing

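The rule kept 53 of the 100 members when only probe sets with exactly 1 gene entered, by construction, 57 with group medians in place of means, and 62 to 99 without 1 array. It kept 94 with no filter, 73 with the stricter filter, 91 with centring and 92 with quantile normalization. With only probe sets of exactly 1 gene, 41 members differed between times in the mean of both regimes, 29 rose and 8 fell at night, and 37 and 25 differed between times in water-limited and well-watered plants, fewer because fewer members entered. Without 1 array these counts ran from 76 to 85, 49 to 58, 12 to 18, 67 to 79 and 48 to 58. Night minus day within well-watered plants gave 32 members higher, and within water-limited plants 5 lower, readings added after seeing the data, as were those without the arrays of 1 time and the midday median without water-limited midday replicate 1. The correlation of deviations between arrays of equal number ran from -0.54 to 0.09, and 0 of 12 pairs exceeded 0.1. Deviations from a mean of 3 arrays sum to 0 in each group, so these correlations cannot settle whether the numbers paired the arrays. Pairs of arrays of equal number at 1 time were also used as a block, a fit that estimates more terms from the same arrays. The listed genes that are no members then gave 4 calls at pre-dawn in place of 9, and 8 in the mean of the 4 times in place of 15. The cause of the lower counts was not tested. Their counts without 1 array ran from 1 to 3 at midnight, 4 to 12 at pre-dawn and 10 to 20 in the mean, and stayed at 0 at midday and late day. The planned description of promoter motifs was not run. Probe sets near the floor can give compressed changes.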
